A study of Mus musculus with 6 samples.

Results

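The miR-99/100 and miR-125 families were followed through 6 small RNA libraries made from mouse heart cardiomyocytes. Their members are miR-99a, miR-99b, miR-100, miR-125a and miR-125b, and every mature row of the count table that bears one of these names, whatever its arm or genomic copy, was taken. That gave 11 mature arms out of 1974 mature miRNA rows in the table, 5 of them 5p arms and 6 of them 3p arms, because miR-125b has a pair of genomic copies with different 3p arms. The hearts came from C57BL/6 mice without the long non-coding RNA lncSync (genotype LncSync-/-, called KO here) and from wild-type (WT) mice, as adults and as embryos at e13.5, where e stands for embryonic day. There were 2 adult KO, 2 adult WT, 1 e13.5 KO and 1 e13.5 WT library. The labels give neither the allele, the age of the adults nor the way cardiomyocytes were isolated, and whether replicates are different animals is not stated either, so p-values measure a spread between libraries that may be technical.

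MiRNAs bind messenger RNAs mainly through their seed, bases 2 to 8 from the 5′ end, so miRNAs with the same seed can act on overlapping sets of targets. MiR-125 is the mammalian counterpart of lin-4, the developmental timing miRNA of the worm Caenorhabditis elegans, and mammals carry it in clusters that also hold a let-7 and a member of miR-99/100. MiR-99/100 is known to repress the growth kinase gene Mtor, and miR-125 the let-7 inhibitor gene Lin28. In mouse embryonic stem cells the miR-99a and let-7c pair is known to affect the making of cardiomyocytes.

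The 5p arms are shown because the results turn on which of them carries a seed, with the seed in capitals. All 11 arms were matched to RefSeq's mature sequences on GRCm38.p6, whose coordinates are those of mm10, the build in the submitters' processing notes.
miR-99a-5p: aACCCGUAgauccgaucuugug
miR-100-5p: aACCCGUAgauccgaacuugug
miR-99b-5p: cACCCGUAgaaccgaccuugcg
miR-125b-5p: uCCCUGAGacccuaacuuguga
miR-125a-5p: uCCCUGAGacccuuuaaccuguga
miR-351-5p: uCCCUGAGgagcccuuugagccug
With positions counted from 1 at the 5′ end and the base of the first-named miRNA given first, miR-99a-5p and miR-100-5p differ at 1 of 22 bases (U16A), while miR-99a-5p and miR-99b-5p differ at 4 (A1C, U11A, U16C and U21C). A read with a sequencing error or trimmed end could stand for either of miR-99a-5p and miR-100-5p, and how such reads were counted is not given in the sources used here, so the split between this pair is uncertain. MiR-125b-5p and miR-125a-5p are alike over their first 13 bases and differ at 7 of 22 compared. MiR-351-5p, an X-linked miRNA outside both families by name, has the miR-125 seed and is alike with miR-125b-5p over the first 8 bases only. The other miRNAs with this seed, miR-6367 and miR-6394, had 0 counts in all 6 libraries.

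The members lie in 3 clusters, all on the plus strand, each made of a miR-99/100 gene, a let-7 gene and a miR-125 gene in that order. On chromosome 16, Mir99a (chr16:77598936-77599000), Mirlet7c-1 (chr16:77599657-77599750) and Mir125b-2 (chr16:77646273-77646343) lie in introns of the non-coding host gene Mir99ahg by the GENCODE vM21 annotation. On chromosome 9, Mir100 (chr9:41531425-41531504), Mirlet7a-2 (chr9:41536716-41536811) and Mir125b-1 (chr9:41581926-41582002) lie in introns of the non-coding genes 3110039I08Rik and Gm49317. On chromosome 17, Mir99b (chr17:17830188-17830257), Mirlet7e (chr17:17830352-17830444) and Mir125a (chr17:17830812-17830879) lie within the protein-coding gene Spaca6, Mir99b and Mirlet7e in an intron and Mir125a over an exon of at least 1 transcript. Other annotated genes overlap as well. Mir100 lies over an exon of the minus-strand Gm48742, Mir125b-1 over an exon of Gm28119 and Mir125b-2 over an exon of C130023A14Rik. Mir99a and Mirlet7c-1 lie in an intron of the minus-strand protein-coding Gm11146. The chromosome 17 cluster is compact, 692 bases from end to end, against 47408 bases on chromosome 16 and 50578 on chromosome 9. Mir351 lies apart, on the X chromosome's minus strand (chrX:53053255-53053353).

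Only the 3p arm tells the copies of miR-125b apart. The hairpin of the chromosome 9 copy is shown with both mature arms in capitals, followed by the 3p arms of both copies with their seeds in capitals.
Mir125b-1: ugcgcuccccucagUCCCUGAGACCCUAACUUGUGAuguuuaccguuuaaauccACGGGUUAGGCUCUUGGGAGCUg
miR-125b-1-3p: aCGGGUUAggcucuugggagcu
miR-125b-2-3p: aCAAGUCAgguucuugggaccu
These 3p arms differ at 5 of 22 bases (G3A, G4A, U7C, C11U and G20C), so their counts can be read by copy, whereas miR-125b-5p is the same RNA from both. The hairpin rows show this sharing. In adult KO replicate 1 the mir-125b-1 hairpin row held 332793 counts and the mir-125b-2 row 331033, each close to the 332730 counts of the shared 5p arm.

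Mature counts totalled 14347091 and 17608586 in the adult KO libraries, 17933518 and 16794840 in the adult WT libraries, 2671957 in the e13.5 KO library and 8944553 in the e13.5 WT library. The 11 arms together took 5.16% and 2.98% of these in adult KO, 4.80% and 3.73% in adult WT, 6.37% in e13.5 KO and 2.23% in e13.5 WT. The e13.5 KO library stood apart by its depth and by its scaling factor (TMM, a trimmed mean that sets libraries on a common scale), which was 2.17 against 0.567 to 1.24 in the other libraries. Results that rest on it are given with and without it. Levels are given as scaled CPM, counts relative to the library's mature total after TMM scaling. Cardiac and skeletal muscle miRNAs, a list that covers the labelled cell type but is not particular to it, took 28.2% to 39.5% of counts in adult libraries. They took 9.86% in e13.5 KO and 14.6% in e13.5 WT, and no marker of this list was at 0 in any library. Smooth muscle and fibroblast markers, with 8 of 8 arms detected in each library, took 7.48% to 11.8% in adults, 21.5% in e13.5 KO and 35.5% in e13.5 WT. Leukocyte markers, with 7 or 8 of 8 arms detected, took 0.0998% to 0.214% in adults, 0.0128% in e13.5 KO and 0.00664% in e13.5 WT, and epithelial markers, with 4 to 9 of 10 arms detected, 0.00245% to 0.00548% in adults, 0.204% in e13.5 KO and 0.145% in e13.5 WT. Of the markers in the 8 lists, only the neuronal miR-124 and the epithelial miR-429 were at 0, in 1 library each. The part of these shares in the stage differences was not tested. In such bulk samples, fewer cells of a type and less RNA per cell cannot be told apart.

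The first comparison set adult against e13.5 cardiomyocyte libraries. Between these stages the 5p arms of miR-125b, miR-125a and miR-99a were higher in adults, the 3p arms of miR-99b and of the chromosome 9 copy of miR-125b were lower, and the 3p arms of the chromosome 16 copy and of miR-100 were higher, with the calls of miR-99a-5p and of the chromosome 16 copy lost under other scalings. In an additive model over all 6 libraries with genotype as a term (edgeR's quasi-likelihood test, Benjamini-Hochberg adjusted over 679 miRNAs), 5 of the 11 arms passed an adjusted p of 0.05 as higher in adults and 2 as lower. Over all miRNAs tested, 28.4% passed as higher and 29.3% as lower (57.7% in either direction), so a call by itself does not set the members apart. The members' median log2 fold was 0.60, against 0.06 for all tested miRNAs. That median moved to -0.93 when libraries were scaled by their totals and to -0.72 with median-of-ratios factors. Folds of 5p arms are therefore also given relative to the median of all miRNAs. A change of scaling moves all folds by much the same amount, so these relative folds hardly depend on it and are no check of it.

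MiR-125b-5p, the most abundant miR-125 in the adult libraries, had the steepest stage difference of the 5p arms. It stood at 24118 and 17508 scaled CPM in adult KO, 21045 and 16458 in adult WT, 1029 in e13.5 KO and 1441 in e13.5 WT libraries. All 4 adult values lay above both e13.5 values. The log2 fold, adult over e13.5, was 4.01 (SE 0.51, edgeR adjusted p = 0.000268), and 3.94 above the median of all miRNAs under TMM and under library totals. Among mature miRNAs it ranked 10 to 20 in the adult libraries and 42 in both e13.5 libraries.

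MiR-125a-5p, which carries the same seed from the chromosome 17 cluster, moved in the same direction. It stood at 6273 and 3683 scaled CPM in adult KO, 5445 and 5230 in adult WT, 1039 in e13.5 KO and 747 in e13.5 WT libraries. The adult and e13.5 values did not overlap on this scale but did overlap on library totals, since adult KO replicate 2 fell below the e13.5 KO library there. Its log2 fold was 2.54 (SE 0.49, edgeR adjusted p = 0.00240), 2.47 above the median of all miRNAs, and it passed under TMM, library totals and median-of-ratios factors, and without each library in turn, but not in KO libraries alone (1.79, edgeR adjusted p = 0.173).

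MiR-99a-5p was the most abundant miR-99/100 arm of the adult libraries. It stood at 18184 and 26669 scaled CPM in adult KO, 21435 and 22889 in adult WT, 7180 in e13.5 KO and 8976 in e13.5 WT libraries. The stages did not overlap on this scale and overlapped on library totals. Its log2 fold was 1.47 (SE 0.42, edgeR adjusted p = 0.0167), 1.41 above the median of all miRNAs and 1.31 above it under library totals. The call was lost under library totals (log2 fold 0.38, edgeR adjusted p = 0.455), with median-of-ratios factors (0.69, 0.123), by DESeq2 (0.69, 0.101), in KO libraries alone (1.17, 0.366) and without any 1 of adult WT replicate 1 (1.03, 0.153), adult WT replicate 2 (1.07, 0.153), e13.5 KO (1.30, 0.114) or e13.5 WT (1.61, 0.0535).

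MiR-100-5p, 1 base away from miR-99a-5p, was lower in every adult library than at e13.5 but did not pass the test. It stood at 2681 and 2505 scaled CPM in adult KO, 2656 and 2236 in adult WT, 4645 in e13.5 KO and 4674 in e13.5 WT libraries. The stages did not overlap on this scale or on library totals. The log2 fold was -0.89 (SE 0.38, edgeR adjusted p = 0.0698), or -0.95 relative to the median of all miRNAs. It passed under library totals (-1.94, edgeR adjusted p = 0.00188), with median-of-ratios factors (-1.66, 0.00489), by DESeq2 (-1.66, 2.16e-05), in WT libraries alone (-0.94, 0.0108) and without adult KO replicate 1 (-1.24, 0.0296) or replicate 2 (-1.33, 0.0122).

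Under TMM scaling, the stage difference of miR-99b-5p rested on the e13.5 KO library. It stood at 2195 and 1810 scaled CPM in adult KO, 2429 and 2281 in adult WT, 14934 in e13.5 KO and 1901 in e13.5 WT libraries. On this scale the e13.5 WT value lay inside the adult range and the e13.5 KO value far above it. On library totals the e13.5 WT value, 2361 CPM, lay above all adult values (1027 to 2192 CPM), so the stages did not overlap there. The log2 fold of -1.61 (SE 0.72, edgeR adjusted p = 0.0804), -1.67 relative to the median of all miRNAs, turned to 0.31 without the e13.5 KO library (edgeR adjusted p = 0.675) and became -2.94 without the e13.5 WT library (edgeR adjusted p = 0.00144). With all 6 libraries it passed under library totals (-2.84, edgeR adjusted p = 0.00454) and with median-of-ratios factors (-2.41, 0.0298). It also passed by DESeq2 (-2.41, adjusted p = 0.00423) and under TMM without the filter on low counts (-1.52, edgeR adjusted p = 0.0330). In KO libraries alone the log2 fold was -3.37, and in WT libraries alone it was 0.31.

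**Figure D1:**
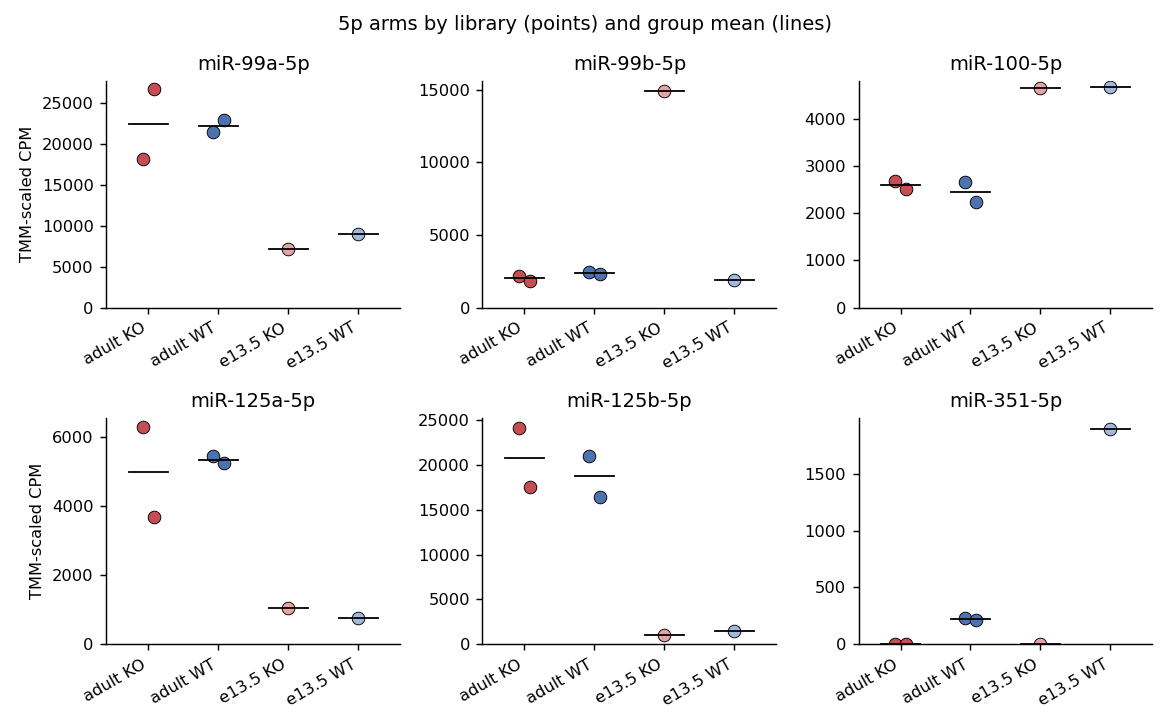
Scaled CPM of the 5p arms and of miR-351-5p in each library (points) with the group mean (lines), in adult KO, adult WT, e13.5 KO and e13.5 WT cardiomyocytes. MiR-125b-5p lies at 16458 or more in the 4 adult libraries and at 1441 or less in the e13.5 libraries, and miR-99b-5p stands at 14934 in the e13.5 KO library alone.

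The 3p arms, usually the strand that is degraded, were rarer. MiR-125b-2-3p, from chromosome 16, stood at 140 and 277 scaled CPM in adult KO, 143 and 213 in adult WT, 30.1 in e13.5 KO and 71.2 in e13.5 WT libraries. MiR-125b-1-3p, from chromosome 9, stood at 4.57 and 7.01 in adult KO, 5.87 and 8.04 in adult WT, 67.9 in e13.5 KO and 33.3 in e13.5 WT libraries. The copies thus went in opposite directions between the stages, with no overlap of adult and e13.5 values in either. The log2 folds were 1.99 for miR-125b-2-3p (SE 0.61, edgeR adjusted p = 0.0221) and -2.95 for miR-125b-1-3p (SE 0.55, edgeR adjusted p = 0.00215). The call for miR-125b-1-3p held under every scaling and without each library in turn, while that for miR-125b-2-3p was lost under library totals (0.93, edgeR adjusted p = 0.211), with median-of-ratios factors (1.21, 0.0980), by DESeq2 (1.21, 0.0541), in KO libraries alone (2.32, 0.104) and without adult KO replicate 2 (1.24, 0.0528), adult WT replicate 1 (1.79, 0.0891), adult WT replicate 2 (1.62, 0.127) or e13.5 KO (1.32, 0.179).

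MiR-99b-3p stood at 32.6 and 20.8 scaled CPM in adult KO, 36.4 and 27.7 in adult WT, 458 in e13.5 KO and 96.8 in e13.5 WT libraries. All adult values were below both e13.5 values, and the stage log2 fold, -3.03 (SE 0.65, edgeR adjusted p = 0.00412), became -1.60 and lost its call without the e13.5 KO library (edgeR adjusted p = 0.0864). MiR-100-3p had 63 and 46 counts in adult KO, 54 and 46 in adult WT, 0 in e13.5 KO and 3 in e13.5 WT libraries. Summed over libraries this was 209 counts in adults and 3 at e13.5, a ratio of 12.1 on library totals (exact 95% counting interval 4.10 to 59.3). Its fitted log2 fold of 4.58 (SE 1.17, edgeR adjusted p = 0.00976) rests on these few e13.5 counts, and the call was lost without the e13.5 KO library (3.64, edgeR adjusted p = 0.0588) and in KO libraries alone (edgeR adjusted p = 0.0651).

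MiR-125a-3p and miR-99a-3p did not pass under TMM. MiR-125a-3p stood at 2.90 and 5.90 scaled CPM in adult KO, 5.99 and 5.28 in adult WT, 11.9 in e13.5 KO and 8.82 in e13.5 WT libraries (log2 fold -1.06, SE 0.63, edgeR adjusted p = 0.173). It passed as lower in adults under library totals (-2.23, edgeR adjusted p = 0.0293), with median-of-ratios factors (-1.85, 0.0292) and by DESeq2 (-1.85, 0.00947). MiR-99a-3p had 14 to 40 counts in the adult libraries, 4 in e13.5 KO and 24 in e13.5 WT. Its log2 fold of 0.60 (SE 0.97, edgeR adjusted p = 0.604) took the opposite sign under library totals, -0.32, and median-of-ratios factors, -0.16.

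Without the e13.5 KO library, 2 arms were called as higher in adults, miR-125a-5p and miR-125b-5p, and 1 as lower, miR-125b-1-3p, while the share of all miRNAs called was 34.8%, against 57.7% with all libraries. Without adult WT replicate 1, and likewise without replicate 2, 3 arms were called as higher and 2 as lower. Over all miRNAs 18.0% and 17.8% were then called higher and 24.4% and 25.5% lower. In WT libraries alone 5 arms were called higher and 3 lower, beside 60.6% of all miRNAs, and in KO libraries alone 1 higher and 3 lower, beside 36.3%. MiR-125b-5p and miR-125b-1-3p were the only arms called in the same direction under TMM, library totals, median-of-ratios factors, WT libraries alone, KO libraries alone and without each library in turn.

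**Figure D2:**
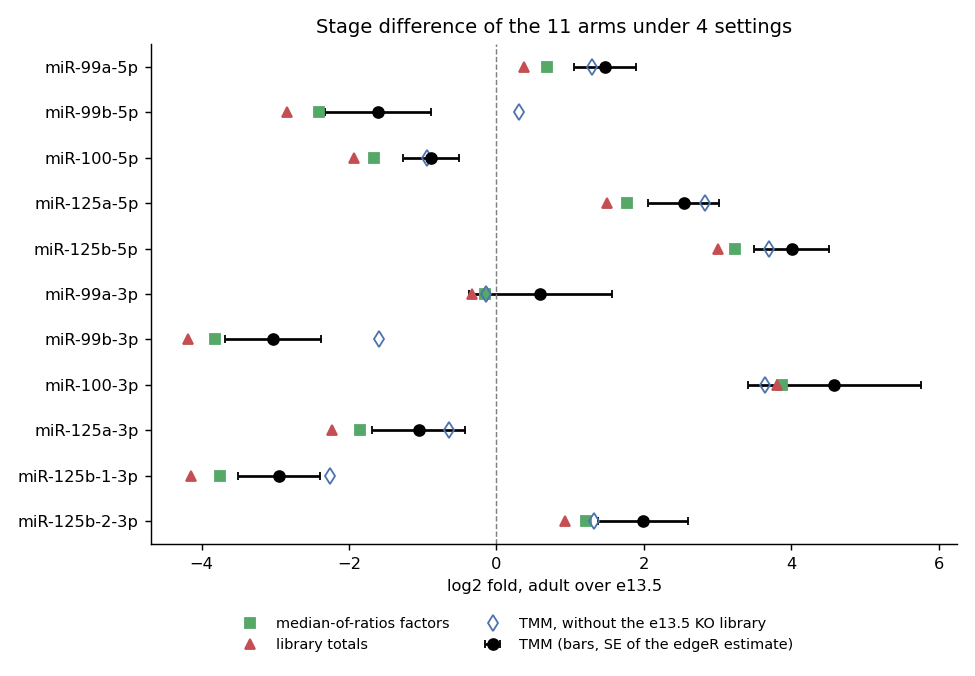
Log2 fold, adult over e13.5, of the 11 arms under TMM scaling (black, with the SE of the edgeR estimate), median-of-ratios factors, library totals and TMM without the e13.5 KO library. MiR-125b-5p and miR-125a-5p lie right of 0 and miR-125b-1-3p and miR-99b-3p left of it in all 4, while miR-99b-5p changes side without the e13.5 KO library.

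Ratios of counts within a library need no scaling and show how the clusters differ. MiR-99a-5p (chromosome 16) was 6.78 and 10.6 times as abundant as miR-100-5p (chromosome 9) in adult KO, 8.07 and 10.2 times in adult WT, 1.55 times in e13.5 KO and 1.92 times in e13.5 WT libraries. The 3p arm of the chromosome 16 copy of miR-125b was 30.7 and 39.5 times as abundant as that of the chromosome 9 copy in adult KO, 24.3 and 26.5 times in adult WT, 0.443 times in e13.5 KO and 2.14 times in e13.5 WT libraries. By these arms, the chromosome 16 cluster took a larger share at both ends, relative to chromosome 9, in every adult library than in either e13.5 library. The rare 3p arms of the miR-99/100 end went the other way. MiR-99a-3p had 40 and 14 counts in adult KO against 63 and 46 for miR-100-3p. In adult WT it had 19 and 35 against 54 and 46. At e13.5 it had 4 against 0 in KO and 24 against 3 in WT. A shift of the whole hairpins at that end is therefore not shown. The geometric mean ratio differed between adult and e13.5 libraries by 5.10-fold for the miR-99/100 5p arms and by 30.6-fold for the miR-125b 3p arms. With 4 adult and 2 e13.5 libraries the exact two-sided permutation test cannot go below p = 0.133, the value it gave for both, and p = 0.156 after adjustment over the 7 ratios computed.

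Within the compact chromosome 17 cluster, the neighbours did not keep a fixed ratio. MiR-125a-5p was 2.86 and 2.04 times as abundant as miR-99b-5p in adult KO, 2.24 and 2.29 times in adult WT, 0.0696 times in e13.5 KO and 0.393 times in e13.5 WT libraries. The ratio was above 1 in all 4 adult libraries and below 1 in both e13.5 libraries, so the difference is also seen in WT libraries alone. Let-7e-5p, between these genes on the chromosome, was 0.0851 and 0.0635 times as abundant as miR-125a-5p in adult KO, 0.0639 and 0.0576 times in adult WT, 0.890 times in e13.5 KO and 1.46 times in e13.5 WT libraries. Both ratios gave the smallest exact permutation p of 0.133, and that of let-7e-5p to miR-99b-5p overlapped between the stages (0.129 to 0.243 in adults, 0.0619 in e13.5 KO and 0.574 in e13.5 WT).

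**Figure D3:**
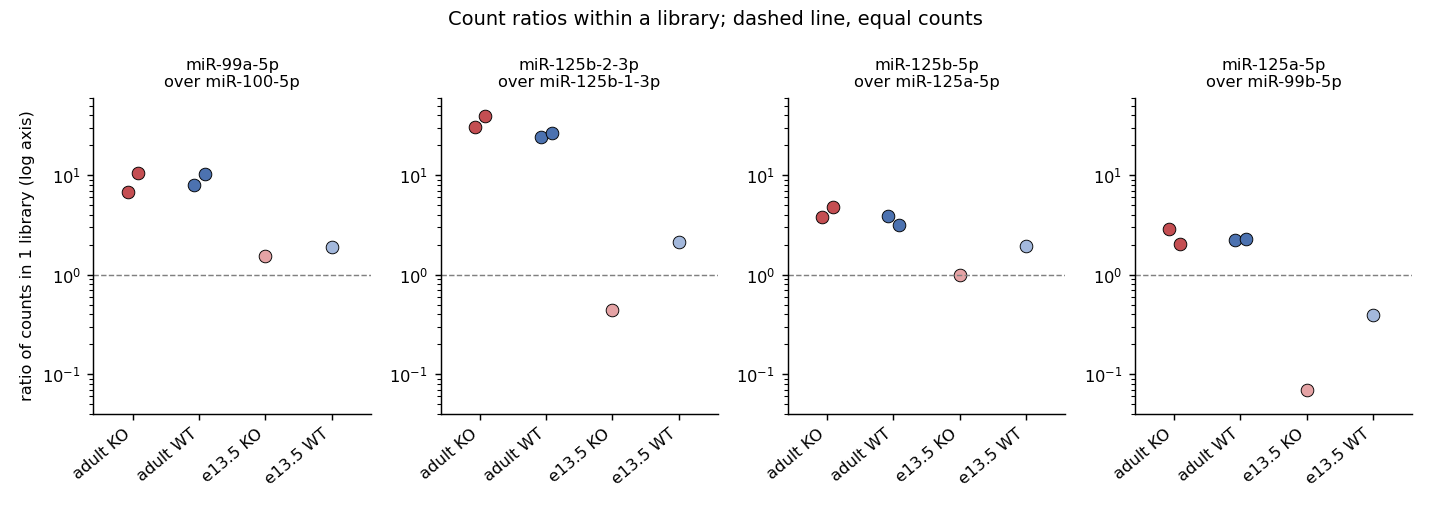
Ratio of 2 members' counts within each library on a log axis, with a dashed line at equal counts, in adult KO, adult WT, e13.5 KO and e13.5 WT cardiomyocytes. The adult points lie above the e13.5 points in each panel, and miR-125a-5p over miR-99b-5p lies above 1 in adults and below 1 at e13.5.

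The let-7 neighbours in the clusters were followed as well. Arms that come from 1 of the cluster genes alone were let-7c-1-3p (chromosome 16), let-7a-2-3p (chromosome 9) and both arms of let-7e (chromosome 17), whereas let-7a-5p and let-7c-5p are also made from genes elsewhere and let-7 reads can be shared between near-identical members. Let-7c-1-3p stood at 13.1 and 15.9 scaled CPM in adult KO, 14.4 and 15.4 in adult WT, 3.80 in e13.5 KO and 3.69 in e13.5 WT libraries (log2 fold 1.97, edgeR adjusted p = 0.0222). It thus lay on the same side as miR-99a-5p and miR-125b-2-3p from the same cluster, and like them it was not called under library totals (0.89, edgeR adjusted p = 0.389). Let-7e-5p was lower in adults (-1.52, edgeR adjusted p = 0.0220) and kept its call under library totals (-2.48, 0.00118), whereas let-7e-3p was higher (1.86, edgeR adjusted p = 0.0196) and lost its call there (0.83, 0.384) and with median-of-ratios factors (1.09, 0.106). Let-7a-2-3p, with 0 to 22 counts per library, was not called (1.05, edgeR adjusted p = 0.589). Of the 4 arms that the chromosome 16 genes alone make, 3 were called higher in adults and 0 lower under TMM, and 0 either way under library totals. Of the 4 of chromosome 9, 1 was called higher and 1 lower under TMM, and 1 and 2 under library totals. Of the 6 of chromosome 17, 2 were called higher and 2 lower under TMM, and 1 and 4 under library totals. Over all miRNAs 28.4% were called higher and 29.3% lower under TMM, and 17.7% higher and 38.7% lower under library totals, and with 4 to 6 arms each these counts do not set a cluster apart.

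Which miRNA carried each seed also differed between the libraries. Among counts with the miR-99/100 seed, miR-99a-5p made up 78.9% and 86.1% in adult KO, 80.8% and 83.5% in adult WT, 26.8% in e13.5 KO and 57.7% in e13.5 WT libraries. MiR-99b-5p made up 9.52% and 5.84% in adult KO, 9.16% and 8.32% in adult WT, 55.8% in e13.5 KO and 12.2% in e13.5 WT libraries. It was the main carrier of the seed in the e13.5 KO library, whereas miR-99a-5p was in the other 5. MiR-100-5p made up 11.6% and 8.09% in adult KO, 10.02% and 8.16% in adult WT, 17.4% in e13.5 KO and 30.1% in e13.5 WT libraries. The summed level of the seed, 23060 and 30984 scaled CPM in adult KO, 26520 and 27406 in adult WT, 26758 in e13.5 KO and 15551 in e13.5 WT libraries, overlapped between the stages.

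MiR-351-5p, whose gene is a neighbour of Mir322 and Mir503, was at or near 0 in the KO libraries, so its place among miR-125 seed carriers differed by genotype as well as stage. It had 0 and 0 counts in adult KO, 3738 and 2664 in adult WT, 1 in e13.5 KO and 21087 in e13.5 WT libraries. It made up 46.5% of the seed's counts in the e13.5 WT library (Wilson 95% interval 46.0 to 46.9), more than miR-125b-5p at 35.3% or miR-125a-5p at 18.3%. In the adult WT libraries it made up only 0.865% and 0.959%. In the e13.5 KO library the seed was carried almost wholly by miR-125a-5p (50.3%) and miR-125b-5p (49.7%), with miR-351-5p at 0.00835% (0.00147 to 0.0473). The summed level of the seed with miR-351-5p was 30391 and 21191 scaled CPM in adult KO, 26721 and 21898 in adult WT, 2068 in e13.5 KO and 4087 in e13.5 WT libraries. Without miR-351-5p the sums at e13.5 were 2068 in KO and 2188 in WT. With miR-351-5p the KO sum was below the WT sum on library totals too, at 4479 CPM in KO and 5074 in WT. Without miR-351-5p the order depended on the scaling, since on library totals the sums were 4479 CPM in KO and 2716 in WT. The e13.5 sums, from 1 library of each genotype, were not tested. These intervals cover counting error only, since no molecular identifiers are stated.

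**Figure D4:**
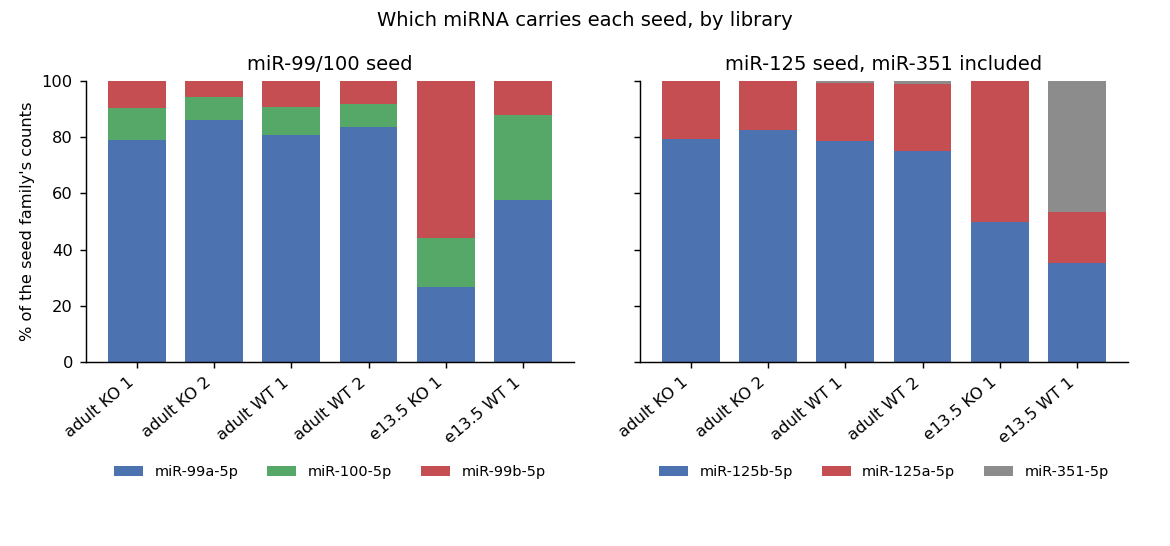
Share of the counts of each seed taken by each miRNA, in percent, for the 6 libraries, left for the miR-99/100 seed and right for the miR-125 seed with miR-351-5p included. MiR-99b-5p takes 55.8% of its seed in the e13.5 KO library, and miR-351-5p takes 46.5% of its seed in the e13.5 WT library.

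The balance between the arms of a hairpin was compared between the stages with limma on the log2 ratio of 5p to 3p counts over 190 hairpins. In 3 of the 5 members the ratio passed an adjusted p of 0.05, higher in adults in 2 and lower in 1. Over all hairpins 43.2% passed, 17.9% as higher and 25.3% as lower, with a median change of -0.99, and the members' median change was 1.57. The 3p arm of miR-125a was 0.0462% and 0.160% of the hairpin's counts in adult KO, 0.110% and 0.101% in adult WT, 1.13% in e13.5 KO and 1.17% in e13.5 WT libraries. Its 5p:3p ratio was higher in adults by a log2 change of 3.61 (SE 0.87, limma adjusted p = 0.0107). The 3p arms of miR-125b, summed over both copies, were 0.597% and 1.60% in adult KO, 0.701% and 1.33% in adult WT, 8.70% in e13.5 KO and 6.76% in e13.5 WT libraries, a log2 change of 3.08 (SE 0.86, limma adjusted p = 0.0175).

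MiR-100 went the other way. Its 3p arm was 0.170% and 0.183% in adult KO, 0.126% and 0.162% in adult WT, 0% in e13.5 KO and 0.00578% in e13.5 WT libraries, where 3 counts, the limit that a count of 0 allows, would be 0.0112% in the e13.5 KO library. The log2 change was -5.50 (SE 0.87, limma adjusted p = 0.00153) and rests on 0 and 3 counts at e13.5. MiR-99b, with 1.46% and 1.14% in adult KO, 1.48% and 1.20% in adult WT, 2.97% in e13.5 KO and 4.84% in e13.5 WT libraries, had a log2 change of 1.57 (SE 0.80, limma adjusted p = 0.133). The log2 change of miR-99a was 0.89 (SE 0.91, limma adjusted p = 0.423), with a 3p share of at most 0.0241% in any library. Without the e13.5 KO library 0 of the 5 passed, and without the e13.5 WT library 1 did, miR-100. Over all hairpins the shares that passed were then 4.21% and 14.2%, so the loss was general.

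**Figure D5:**
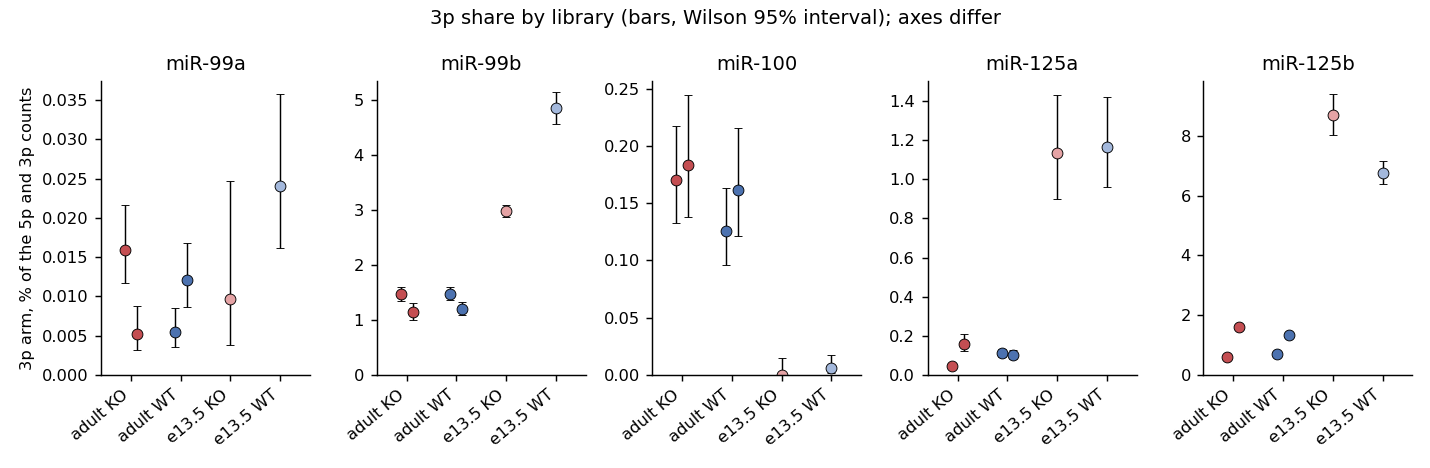
Share of the 3p arm in the summed 5p and 3p counts of each member, in percent, by library (points) with Wilson 95% intervals that cover counting error, on an axis of its own for each member. The shares of miR-125a, miR-125b and miR-99b are higher in both e13.5 libraries than in any adult library, and that of miR-100 is lower.

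The next comparison asked whether loss of lncSync was accompanied by a change of these families in adult cardiomyocytes. None of the 11 arms passed in adult KO against adult WT libraries (edgeR's quasi-likelihood test, 544 miRNAs tested), and over all miRNAs 0.735% passed. The log2 folds of the 11 arms, KO over WT, lay between -0.30 and 0.46, all with an edgeR adjusted p of 0.999. At an unadjusted p under 0.05 there were 16 of all miRNAs and 0 of the members. DESeq2 and limma also called 0 members. Of all 544 miRNAs DESeq2 called only 4 and limma 0, so their count of 0 says little on the members. For the 5p arms the log2 folds were 0.08 for miR-99a-5p (SE 0.41), -0.17 for miR-99b-5p (SE 0.41), 0.15 for miR-100-5p (SE 0.41), -0.03 for miR-125a-5p (SE 0.45) and 0.22 for miR-125b-5p (SE 0.42). The sign is not settled for 4 of these 5: miR-99a-5p and miR-100-5p stood at -0.17 and -0.031 under library totals, miR-125a-5p at 0.23 without adult KO replicate 2, and miR-125b-5p at -0.042 without adult KO replicate 1 and -0.075 without adult WT replicate 2. On library totals, and with TMM factors from the adult libraries alone, the KO and WT ranges overlapped for 5 of these 5 arms. On the scaled CPM used elsewhere they overlapped for 4, and for miR-99b-5p the KO values (2195 and 1810) lay below the WT values (2429 and 2281), a split not seen on library totals (2111 and 1027 CPM in KO, 2192 and 1723 CPM in WT).

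At e13.5, where 1 library of each genotype is described without a test, both arms of miR-99b were far more abundant in the KO library. MiR-99b-5p had 86415 counts in e13.5 KO and 21115 in the deeper e13.5 WT library, a log2 difference of 2.97 after scaling. Its ratio on library totals was 13.7 (exact 95% counting interval 13.495 to 13.909), and it ranked 6 among mature miRNAs in e13.5 KO against 33 in e13.5 WT. MiR-99b-3p had 2649 counts in e13.5 KO and 1075 in e13.5 WT, a log2 difference of 2.24. These were the only arms past 4-fold among the 10 with at least 10 counts in either library, and 0 were past 4-fold lower. Over all miRNAs described, 17.3% were past 4-fold, 8.14% as higher and 9.2% as lower in KO, with a median log2 difference of -0.41.

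The neighbours of Mir99b differed by less, which was not tested. In the same 692-base cluster, let-7e-5p differed by -0.24 and miR-125a-5p by 0.48 on the same log2 scale. The other 7 members' arms described lay between -1.37 (miR-99a-3p, on 4 and 24 counts) and 1.02 (miR-125b-1-3p). On library totals, where the median of all miRNAs moved to 0.36, miR-99b-5p differed by 3.78, let-7e-5p by 0.56 and miR-125a-5p by 1.28. The sum of the erythroid marker miRNAs also stood higher in e13.5 KO, at 6613 scaled CPM against 603 in e13.5 WT, with 5 of 5 arms detected in each library. The arms did not all move alike. Log2 differences, KO over WT, were 3.52 for miR-451a, 3.53 for miR-486a-5p and 2.05 for miR-486a-3p. They were 1.29 for miR-144-5p and -0.26 for miR-144-3p. Cardiac and skeletal muscle markers summed to 45533 scaled CPM in e13.5 KO (9 of 15 arms detected) and 117719 in e13.5 WT (13 of 15), and smooth muscle and fibroblast markers to 99097 in e13.5 KO and 286235 in e13.5 WT. The part of these in the miR-99b difference was not tested. In adults the erythroid sum was 23166 and 9958 scaled CPM in KO and 17411 and 13748 in WT libraries, and miR-99b-5p stood between 1810 and 2429. Whether these adult values bear on the single e13.5 pair was not tested.

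With both stages in 1 model, 0 of the 11 arms passed for KO over WT, with 0.736% of 679 miRNAs called. By edgeR 14 miRNAs and 0 members had an unadjusted p under 0.05. DESeq2 and limma called 0 members, and each called 5 of the 679 miRNAs. The log2 fold for miR-99b-5p was 0.74 here (SE 0.69, edgeR adjusted p = 0.989), and it became -0.27 without the e13.5 KO library and -0.26 without the e13.5 WT library. The test of whether the genotype difference itself differs by stage called 0 of the 11 arms and 0.0% of 769 miRNAs, with 46 miRNAs and 2 members, both arms of miR-99b, at an unadjusted p under 0.05. For miR-99b-5p the genotype difference in adults minus that at e13.5 was -3.22 on the log2 scale (SE 0.78, edgeR adjusted p = 0.377), and for miR-99b-3p -2.52 (SE 0.92, edgeR adjusted p = 0.760). DESeq2 called miR-99b-5p (adjusted p = 0.0383) among 4 miRNAs. The edgeR call also turned on single adult libraries, with 3 members (both arms of miR-99b and miR-125b-2-3p) called without adult KO replicate 1, 2 without adult KO replicate 2, and 0 without adult WT replicate 1 or without replicate 2. Over all miRNAs 11.8% were called without adult KO replicate 1, 5.31% without adult KO replicate 2 and 0.0% without either WT replicate. Only the adult replicates give this test its spread, which is taken to hold for the single e13.5 libraries too. With 2 residual degrees of freedom and a common biological coefficient of variation (the spread beyond counting error) of 0.628, a missing call says nothing on whether the genotype difference was alike at both stages.

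Across the 6 libraries the members fell into patterns that other abundant miRNAs shared, described here by Pearson's r of log2 scaled CPM over 155 other miRNAs with a mean of at least 100 scaled CPM. The points share library scaling and the difference between stages, so these values carry no p. The order is that under TMM over all 6 libraries: of the nearest 3, library totals kept 2 for miR-99b-5p, 1 for miR-125a-5p, 1 for miR-125b-5p and 0 for miR-99a-5p and miR-100-5p. Without the e13.5 KO library 2 were kept for miR-99a-5p and miR-125b-5p, 1 for miR-99b-5p and miR-100-5p, and 0 for miR-125a-5p. MiR-125b-5p was most like miR-34a-5p (r = 0.999), miR-107-3p and miR-155-5p, and miR-125a-5p most like let-7d-3p (r = 0.996), miR-221-3p and miR-204-5p. MiR-99a-5p was most like miR-26a-5p (r = 0.998), miR-24-2-5p and miR-145a-3p, but these values fell to 0.825, 0.699 and 0.664 under library totals. MiR-100-5p was most like miR-532-5p (r = 0.984), miR-7a-5p and miR-183-5p. MiR-99b-5p was most like miR-744-5p (r = 0.940), the erythroid miR-451a (r = 0.885) and miR-106b-3p (r = 0.824), and without the e13.5 KO library the first 2 dropped to -0.05 and 0.04 while miR-106b-3p stayed at 0.801.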

How the data were processed

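Total RNA, extracted with TRIZOL, went into NEXTFLEX small RNA libraries, per the labels' protocols. The deposited values are raw counts per miRNA in 1 table, whose build is mm10 per the submitters' processing notes. For shared reads, the handling is not given in the sources used here, nor are the aligner and counter. Of 3208 rows, 1974 mature rows were used and 1234 hairpin rows were only compared. Mature rows that held the same reads (within 1% of their total) were merged, which left 1952, none of them a merged member. No row lacked a name, and 0 columns belonged to other samples.

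The members and all lists were chosen with earlier results of these data known. The members were all named by the rule, with cluster neighbours, miR-351-5p as a seed partner, and for each 5p arm the 3 miRNAs most like it. R 4.3.3 and edgeR 4.0.16 ran the tests of counts (TMM scaling, filterByExpr at 10 counts, glmQLFit, glmQLFTest, two-sided). The threshold was 0.05 after Benjamini-Hochberg adjustment over all miRNAs tested. All 11 arms passed the filter in each of the 4 fits. Residual degrees of freedom were 3 in the additive fit and 2 in the adult and interaction fits. E13.5 genotypes were described with a prior count of 2 and the 6-library TMM factors. Arm ratios were fitted with limma 3.58.1 on log2((5p + 0.5)/(3p + 0.5)) for hairpins with a mean count of at least 5 per arm. Exact permutation tests and intervals used scipy 1.17.1. DESeq2 1.42.0, limma voom, library totals, median-of-ratios factors, no filter, unmerged rows, libraries of 1 genotype and each library left out were alternatives. The fits were checked on simulated data. The floor of 3 counts was 0.167 to 0.209 CPM in adult libraries, 1.12 in e13.5 KO and 0.335 in e13.5 WT.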

Additional observations from a re-analysis of the deposited data

Results flagged for a closer look

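On the TMM scale over 6 libraries, miR-99b-5p lay on opposite sides between the genotypes at the 2 stages: both adult KO libraries, at 2195 and 1810 scaled CPM, were below both adult WT libraries, at 2429 and 2281, while the e13.5 KO library, at 14934, was above the e13.5 WT library, at 1901. The adult side is small (log2 fold -0.17, SE 0.41, edgeR adjusted p = 0.999), and the adult groups overlapped on library totals and with TMM factors from the adult libraries alone (1762 and 1437 CPM in KO, 1860 and 1738 CPM in WT), so an opposite direction in adults is not established. The difference between the stages was -3.22 on the log2 scale and did not pass edgeR's test of that difference (adjusted p = 0.377), in which the e13.5 side rests on 1 library of each genotype.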

How the results depend on the processing

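Of the stage counts, 5 arms higher in adults became 3 under library totals, 3 with median-of-ratios factors, 3 by DESeq2 and 1 in KO libraries alone, and 2 arms lower became 5 under library totals, 5 with median-of-ratios factors and 5 by DESeq2. Over all miRNAs 28.4% were called higher and 29.3% lower under TMM, 17.7% and 38.7% under library totals, 19.6% and 35.5% with median-of-ratios factors, 23.1% and 36.7% by DESeq2, and 13.7% and 22.6% in KO libraries alone. With each adult library left out, 3 to 5 member arms were called higher and 2 to 3 lower. Beside them, 17.8% to 25.2% of all miRNAs were called higher and 24.4% to 33.4% lower. Refits without an e13.5 library leave a single library at that stage and are not counted here. The number of members with a genotype difference that differed by stage was 1 by DESeq2 and ranged from 0 to 3 with each adult library left out. It could not be fitted without either e13.5 library, since a group would then be missing. Arm ratios passed in 3 members with each adult library left out, beside 36.3% to 48.4% of all hairpins. Without either e13.5 library fewer passed, among members and all hairpins alike, as given above. The counts for genotype in adults and over both stages stayed at 0, and the e13.5 count at 2, in all alternatives run. The adult replicate numbers are not stated to pair the libraries. Deviations of same-numbered libraries, on library totals, had r = 0.0145. With 2 libraries per adult group this is a single value, which cannot exclude pairing. With the numbers as a replicate block 0 members were called in adults. Stage folds that took the other sign were those of miR-99a-3p (-0.32 under library totals, -0.16 with median-of-ratios factors, -0.15 by DESeq2, -0.14 in WT libraries alone, -0.14 to 1.57 with each library left out) and miR-99b-5p (0.31 in WT libraries alone, -2.94 to 0.31 with each library left out). Adult KO over WT folds did so for miR-99a-5p (-0.17 under library totals, -0.28 to 0.32 with each library left out), miR-100-5p (-0.031 and -0.10 to 0.26), miR-125a-5p (-0.48 to 0.23 with each left out) and miR-125b-5p (-0.075 to 0.39), and the fold over both stages for miR-99b-5p (-0.27 to 1.24). The cause was not tested. The likeness without the e13.5 KO library and the e13.5 scaling over its own libraries (miR-99b-5p 3.29) were chosen after seeing the data. The e13.5 KO library, the shallowest, limits what could be seen of the rare 3p arms.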
